A study of Mus musculus with 12 samples.

Results

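Transcripts of 9 genes of the complement system were followed across 12 single-cell RNA libraries of mouse brain and blood cells. The genes were picked by symbol, as 9 of 31054 listed features. They were the C1q chains C1qa, C1qb and C1qc, the soluble components C3, C4b and Cfp, the anaphylatoxin receptors C3ar1 and C5ar1, and the membrane regulator Cd55. The study asked how microglia-like cells (MLCs) that descend from transplanted hematopoietic stem/progenitor cells (HSPCs) compare with the endogenous microglia of the same brain. Recipients were C57BL/6J mice conditioned with busulfan, and male donor cells were transduced with a lentiviral vector for GFP and given intravenously (i.v.) or into the cerebral ventricles (i.c.v.). Per route, 1 female and 1 male mouse gave 2 libraries each, 1 of GFP+ MLCs and 1 of GFP- microglia, both sorted as CD45+, CD11b+ and CX3CR1+ cells. All 4 treated mice thus shared conditioning and had also received untransduced total bone marrow i.v. after the gene-modified cells, so the GFP- sort may hold donor cells without GFP. Tissue was taken 12 to 13 months after dosing according to the design text, whereas 22 to 28 weeks is the age on the sample records, and this was not resolved. A treatment-naive mouse, labelled 8 to 12 weeks of age, gave 1 library each of microglia, neurons (gated in the study as CD45-, Thy1+ and ACSA2+), astrocytes (CD45-, Thy1- and ACSA2+) and peripheral blood mononuclear cells (PBMCs).

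Complement is a cascade of plasma and tissue proteins. In the classical pathway C1q, a hexamer of C1qa, C1qb and C1qc trimers, binds its target and leads to cleavage of C4 and C2 and then of C3, whose fragments tag the target for uptake. Properdin, the product of Cfp, stabilises the C3 convertase of the alternative pathway, while CD55 speeds the decay of convertases. The fragments C3a and C5a act through the receptors C3aR1 and C5aR1, and in the brain microglia are the main source of C1q, which has been linked to the tagging of synapses.

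The C1q chains are encoded side by side on the minus strand of chromosome 4. In the GENCODE annotation of GRCm38, C1qb lies at 136880129 to 136886187, C1qc at 136889804 to 136893065 and C1qa at 136895917 to 136898803, and the cluster spans 18675 bases with gaps of 3616 and 2851 bases between neighbours. The C1q transcripts kept nearly the same ratio in the 8 treated libraries described here. Naive microglia lay slightly outside that range for C1qa and C1qc, and PBMCs lay further outside it. Common control of the transcripts was not tested. The stretches before the start sites of C1qb and C1qc are shown, from RefSeq promoters of GRCm38.p6 on the minus strand. The C1qb stretch is chr4:136886201-136886450 and the C1qc stretch is chr4:136893066-136893164, which leaves out bases inside the annotated gene. Capitals mark GAGGAA or, on the opposite strand, TTCCTC, a purine-rich hexamer that contains the GGAA core recognised by ETS-family factors such as PU.1.
C1qb: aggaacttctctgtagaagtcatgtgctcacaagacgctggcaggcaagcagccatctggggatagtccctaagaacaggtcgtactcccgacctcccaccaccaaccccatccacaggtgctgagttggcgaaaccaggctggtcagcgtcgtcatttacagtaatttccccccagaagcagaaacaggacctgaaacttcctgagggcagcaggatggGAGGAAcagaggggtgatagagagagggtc
C1qc: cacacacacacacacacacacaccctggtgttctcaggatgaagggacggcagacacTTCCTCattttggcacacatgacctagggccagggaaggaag
The match began 30 bases before the RefSeq start of C1qb and 193 bases before that of C1qc. Promoters were matched for 7 of the 9 genes, all but C1qa and C4b, and 2 of those 7 held the hexamer on either strand within 250 bases, against 23.3% of all 32851 promoter windows of that length. A match is a description of the letters and not of a bound site.

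Cells were kept from 200 detected genes upward and up to 10% mitochondrial UMIs (unique molecular identifiers). The treated libraries then held 2266 to 4555 cells, with 4970758 to 16514669 UMIs in all. Median depth was 842 to 1034 UMIs per cell in GFP- libraries and 1058 to 3499 in GFP+ libraries. The transgene gave 183 to 460 UMIs in GFP+ libraries and 0 or 1 in GFP- libraries. Of the kept cells of the naive neuron sort, 549 of 575 carried at least 3 of 8 oligodendrocyte markers and 2 carried at least 3 neuron markers, so that library is called the neuron sort, and its values describe mostly oligodendrocyte-marker cells. Any pair of libraries shared at most 8 cell barcodes. CPM values are the UMIs of a gene per 1000000 UMIs of all genes in the kept cells of a library. UMIs tag transcript ends, so CPM are not divided by gene length.

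C1qa, C1qb and C1qc were abundant in every microglia and MLC library and at the same order of magnitude in both sorts. C1qa stood at 7005 and 6168 CPM in GFP- microglia of the i.v. female and male and at 6316 and 6599.6 CPM in those of the i.c.v. female and male. In GFP+ MLCs of the same mice, in the same order, C1qa stood at 7053, 5491, 7334 and 7232 CPM. Naive microglia held 6037 CPM (exact 95% Poisson interval 5884 to 6192, counting error only). The ranges of the sorts overlapped, and the lowest of all 9 libraries was that of i.v. male GFP+ cells. C1qb ran from 5526 to 5972 CPM in GFP- and from 4778 to 6359 CPM in GFP+ libraries, and C1qc from 4054 to 4410 CPM and from 3515 to 4754 CPM, each with its lowest value in that same library. GFP+ was the higher sort in 3 of 4 mice for each chain.

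**Figure D1:**
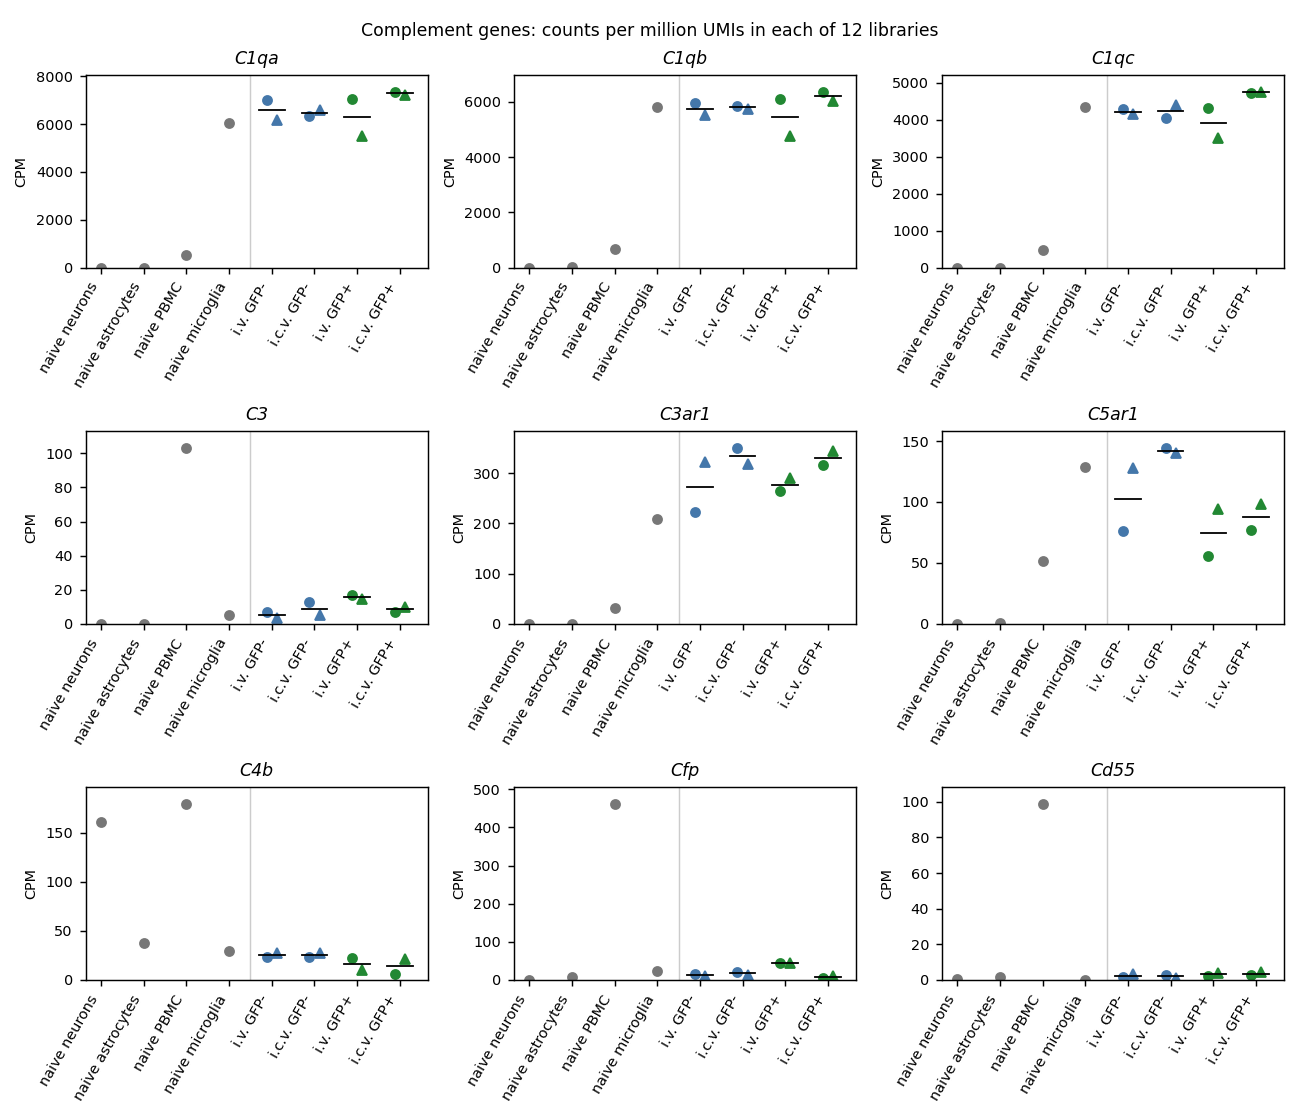
CPM of each complement gene (y axis, linear, from 0) in the 12 libraries by group (x axis). Circles are female or naive libraries, triangles male ones, and black lines are the means of 2 mice; the C1q genes stand high in microglia and MLCs of every group, and Cfp stands at 43.4 and 45.6 CPM in i.v. GFP+ libraries.

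The split of C1q UMIs among the chains was nearly the same in all 8 treated libraries. C1qa took 38.9% to 40.6% of C1q UMIs, C1qb 33.5% to 36.1% and C1qc 24.7% to 26.4%. In naive microglia C1qa took 37.2% (exact binomial 95% interval 36.5% to 38.0%), and in PBMCs, whose C1q total was far lower, 31.6% (30.2% to 33.0%). PBMCs lay outside the range of the 8 treated libraries for every chain. Naive microglia lay below that range for C1qa and slightly above it for C1qc, at 26.8% (26.2% to 27.5%). For C1qb they lay within it, at 35.9%.

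Between sorts, the C1q genes did not pass the threshold, and the size of their difference rested on the scaling of the libraries. The log2 fold change of GFP+ over GFP- was 0.33 ± 0.13 (SE) for C1qa (adjusted p = 0.0805), 0.29 ± 0.13 for C1qb (adjusted p = 0.115) and 0.31 ± 0.13 for C1qc (adjusted p = 0.0854), by the quasi-likelihood test of edgeR with 4 libraries per sort. None of the 9 complement genes was called, where 32.5% of all 11756 genes tested were called (1951 or 16.6% higher and 1869 or 15.9% lower in GFP+). At an unadjusted p under 0.05 stood 4 of the 9, C1qa, C1qc, C3 and Cd55, and DESeq2 called C1qa, C1qb, C1qc and C3 higher in GFP+. The median log2 fold change of the 9 genes was 0.31, beside 0.01 over all genes.

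TMM scaling factors were 0.859 to 0.967 in GFP+ and 1.04 to 1.16 in GFP- libraries, so that scaling moved with the sort. With library totals alone, the C1q fold changes were 0.05, 0.01 and 0.03 on the log2 scale, the median of all genes moved to -0.27, and the calls became 770 higher and 3803 lower. The mean C1qa level on that plain scale was 6778 ± 865 CPM (SD, n = 4) in GFP+ and 6522 ± 368 CPM (SD, n = 4) in GFP- libraries. With every cell thinned to 500 UMIs, and without cells that carried markers of CNS-associated macrophages (CAMs), the sign turned for each chain, to between -0.05 and -0.22. Neither direction passed the threshold under those settings.

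Per cell, GFP+ libraries held a larger share of cells without any C1q UMI at matched depth. At 500 UMIs per cell, 55.9% to 64.9% of GFP- cells held UMIs of all 3 chains, and 37.5% to 58.7% of GFP+ cells did. Cells without a C1q UMI made up 1.495%, 1.08%, 1.40% and 1.13% of GFP- cells in the i.v. female, i.v. male, i.c.v. female and i.c.v. male, and 11.7%, 15.1%, 7.44% and 3.28% of GFP+ cells. The sorts did not overlap in that share. C1qa alone had a UMI in 89.4% ± 0.968 (SD, n = 4) of GFP- and 75.6% ± 6.23 of GFP+ cells, an unadjusted exact permutation p = 0.0286, two-sided, which is the smallest 4 against 4 libraries allow. That test leaves out the pairing by mouse. An exact sign-flip test of the paired differences gave p = 0.125, the smallest that 4 mice allow. Of all genes tested, 17.4% had shares that did not overlap between sorts at this depth (5.06% higher and 12.3% lower in GFP+). The share and the CPM of C1qa went different ways, so no order of the sorts was read from it. At 1000 UMIs the GFP+ mean was 90.5% and the GFP- mean 96.5%.

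**Figure D2:**
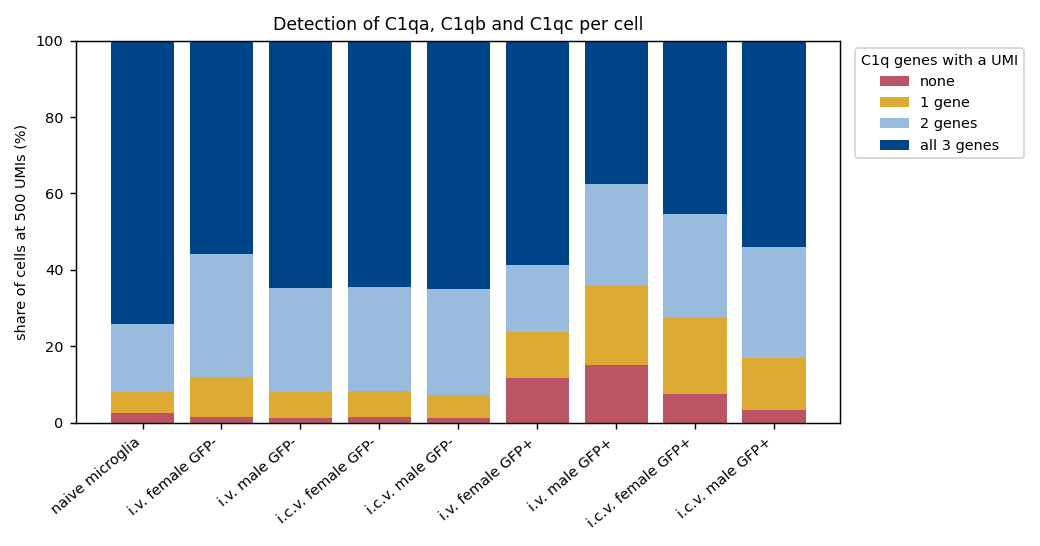
Share of cells (y axis, %) with a UMI of none, 1, 2 or all 3 C1q genes after thinning each cell to 500 UMIs, in naive microglia and the 8 treated libraries (x axis). The red part, cells with none, is 1.08% to 1.495% in GFP- and 3.28% to 15.1% in GFP+ libraries.

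GFP+ cells without a C1q UMI at 500 UMIs differed between routes in the markers they carried at their own depth. That depth also differed, with medians of 1433 and 1239.5 UMIs in the i.v. and 808 and 952 UMIs in the i.c.v. female and male. At own depth they held C1qa at 86.8 and 91.6 CPM in the i.v. and 425 and 1079 CPM in the i.c.v. mice. These cells were thus not free of C1q, and whether depth played a part was not tested. In the i.v. female and male, 29.8% and 26.0% of them carried at least 3 markers of a brain or blood cell type other than microglia or CAMs, and 14.5% and 15.5% carried dendritic cell markers. In the i.c.v. female and male these shares were 2.56% and 3.45%, with no dendritic-marker cell, and Malat1 took 10.3% and 9.51% of their UMIs. Malat1 took 2.64% and 2.87% in the i.v. mice. In sorts that should lack C1q, the share of cells with a C1q UMI after thinning to 500 UMIs was 0 of 482 in the neuron sort, which allows a share of up to 0.622%, and 0.611% of 1146 astrocytes. At the cells' own depth, medians of 6937 and 3395 UMIs, C1qa had a UMI in 6 of 575 and 4 of 1146 cells (1.04% and 0.349%) and C1qb in 2 and 23 (0.348% and 2.01%).

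Cfp, which encodes properdin, was the only one of the 9 genes called between routes. In GFP+ MLCs it stood at 45.6 CPM in the i.v. female and 43.4 CPM in the i.v. male, and at 6.23 and 11.5 CPM in the i.c.v. female and male. In GFP- microglia the same mice gave 15.1, 9.96, 20.4 and 14.0 CPM. Both i.v. GFP+ libraries lay above the other 6. The log2 fold change of i.v. over i.c.v. was 2.42 ± 0.32 (SE) within MLCs (adjusted p = 0.00737), with 2.78% of 12540 genes called in that comparison (2.56% higher and 0.215% lower in i.v.), and -0.59 ± 0.34 within microglia (adjusted p = 0.646), where 0% were called. Over all genes, 1063 of them stood at an unadjusted p under 0.05 within microglia, none of them among the 9, and DESeq2 called 70. The difference between these effects, the interaction of sort with route, was 3.002 ± 0.46 (adjusted p = 0.0218; 1.91% of genes called, 1.8% above and 0.112% below 0), and 3.02 with the mouse as a block (adjusted p = 0.0164).

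The Cfp call was lost in some fits with fewer libraries, cells or UMIs. It held in 15 of 19 alternative fits for the interaction and in 15 of 18 between routes in MLCs. The fold change between routes in MLCs was above 0 in all 18, from 1.27 to 4.27. With the i.c.v. female's GFP+ cells left out it was 2.03 (adjusted p = 0.0605) and with cells thinned to 500 UMIs 1.27 (adjusted p = 0.127). Without all cells that carried markers of other cell types it was 1.64 (adjusted p = 0.0584), and the interaction was 2.17 (adjusted p = 0.128). The interaction also lost its call when i.v. male GFP- cells (2.72, adjusted p = 0.102), i.c.v. female GFP- cells (2.69, adjusted p = 0.105) or i.c.v. female GFP+ cells (2.61, adjusted p = 0.0598) were left out.

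Cells with dendritic cell, monocyte and neutrophil markers were more numerous in the i.v. than in the i.c.v. GFP+ libraries, as Cfp was higher there. Dendritic-marker cells numbered 73 and 61 in the i.v. GFP+ libraries and 1 and 0 in the i.c.v. ones, and 1 to 5 in GFP- libraries. The 8 dendritic cell markers summed to 263 and 426 CPM in i.v. GFP+ libraries and to 35.7 and 60.8 CPM in i.c.v. ones, with 7 or 8 of the 8 detected in each. Monocyte-marker cells numbered 53 and 23 against 0 and 0, and the 8 monocyte markers summed to 449 and 378 CPM against 2.49 and 3.48 CPM. Plac8, Chil3 and Hp were at 0 in both i.c.v. GFP+ libraries. Neutrophil-marker cells numbered 14 and 25 against 0 and 0, and the 9 neutrophil markers summed to 1674 and 3311 CPM against 112 and 120 CPM, with S100a8, S100a9, Retnlg, Ly6g, Ngp and Camp at 0 in both i.c.v. GFP+ libraries. In GFP- libraries the neutrophil sums were 515 and 344 CPM in i.v. and 6043 and 1186 CPM in i.c.v. mice. In the i.v. female and male, dendritic-marker cells held Cfp at 281 and 166 CPM and 41.6% and 39.95% of the library's Cfp UMIs, monocyte-marker cells held 248 and 142 CPM (20.8% and 10.05%), and neutrophil-marker cells 132 and 129.6 CPM (1.33% and 3.97%). Cells with markers of no other type and no CAM markers held 34.4 and 49.9 CPM in the i.v. and 4.63 and 6.10 CPM in the i.c.v. GFP+ libraries. That set includes cells without microglia markers, and its microglia-marker cells gave 36 of 169 and 27 of 144 of its Cfp UMIs in the i.v. libraries. In those microglia-marker cells the levels were 10.3 and 19.6 CPM in the i.v. and 4.19 and 6.97 CPM in the i.c.v. GFP+ libraries. The part of any single cell type in the call was not tested.

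C3, the central component, was low in every brain library. It stood at 16.8 and 14.7 CPM in i.v. GFP+ MLCs and at 6.90 and 9.90 CPM in i.c.v. ones, and at 6.64, 3.22, 12.6 and 5.01 CPM in GFP- microglia of the i.v. female, i.v. male, i.c.v. female and i.c.v. male. The CPM of the sorts overlapped over all mice, but in the i.v. mice both GFP+ values were above both GFP- values. The share of cells with a C3 UMI at 500 UMIs did not overlap, at 0.566% to 0.750% in GFP+ and 0.187% to 0.528% in GFP- libraries, higher in GFP+ in 4 of 4 mice (unadjusted two-sided exact permutation p = 0.0286, the smallest that 4 against 4 allows), as did 5.06% of all genes in that direction. Paired by mouse, an exact sign-flip test gave p = 0.125 at 500 UMIs, the smallest that 4 mice allow. At 1000 UMIs the shares overlapped (p = 0.0571, exact permutation test), with GFP+ higher in 3 of 4 mice. The log2 fold change between sorts was 1.09 ± 0.44 (SE, adjusted p = 0.0867), 2.09 in the i.v. mice alone (adjusted p = 0.00702) and 0.10 in the i.c.v. mice alone (adjusted p = 0.903). The test of that difference, the interaction, gave 2.00 ± 0.65 (adjusted p = 0.160), and 2.02 without a filter on low counts (adjusted p = 0.0339). Of 23 alternatives to the test between sorts, 7 called C3. Besides i.v. mice alone they were DESeq2 (1.09, adjusted p = 0.0391), cells thinned to 500 UMIs (0.98, adjusted p = 0.0498), cells of other lists left out (1.13, adjusted p = 0.0337), the 3% of cells with the most UMIs left out (1.35, adjusted p = 0.0128), and both fits without a library of the i.c.v. female. C3 was past the threshold at 1.64 without that mouse's GFP- library and 1.29 without its GFP+ library (adjusted p = 0.0153 and 0.0472). Monocyte-marker cells of the i.v. GFP+ libraries held C3 at 104 and 132 CPM, and dendritic-marker cells at 0.898 and 1.94 CPM.

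**Figure D3:**
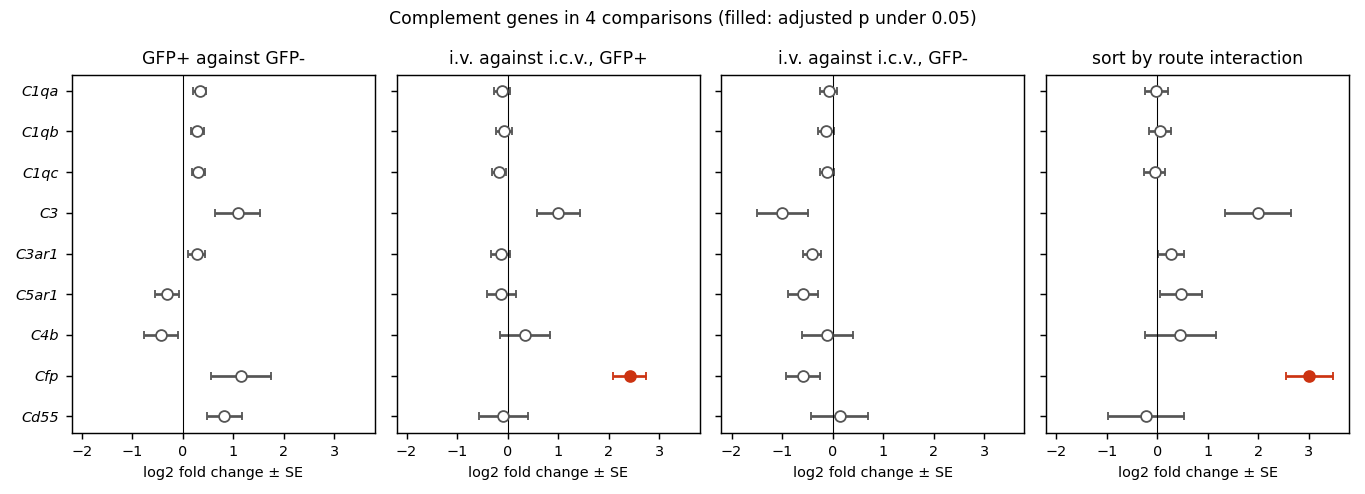
Log2 fold change with its SE (x axis) of each complement gene (y axis) between sorts, between routes within each sort, and for the interaction of sort with route. Filled points passed an adjusted p of 0.05, which only Cfp did, between routes in MLCs (2.42) and for the interaction (3.002).

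The anaphylatoxin receptors were found in all microglia and MLC libraries. C3ar1 ran from 224 to 350.0 CPM in GFP- and from 265 to 344 CPM in GFP+ libraries, with naive microglia at 209 CPM, and its log2 fold change was 0.28 ± 0.16 (SE, adjusted p = 0.215). C5ar1 stood at 76.2, 128, 144 and 140.0 CPM in GFP- libraries of the i.v. female, i.v. male, i.c.v. female and i.c.v. male and at 55.9, 93.9, 77.0 and 98.3 CPM in their GFP+ libraries. GFP+ was the lower sort in 4 of 4 mice on this scale, but the ranges overlapped and the fitted difference was -0.31 ± 0.24 (adjusted p = 0.343). In each sort, both receptors were lowest in the i.v. female. C5ar2, a second C5a receptor, differed by -0.25 ± 0.17 (adjusted p = 0.271).

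C4b encodes the C4 component that follows C1q. It stood at 23.5, 27.6, 23.6 and 27.5 CPM in GFP- libraries of the i.v. female, i.v. male, i.c.v. female and i.c.v. male, a narrow range, and at 22.8, 10.54, 6.56 and 21.5 CPM in the GFP+ libraries of the same mice. The sorts did not overlap on the plain CPM scale, as was the case for 38.9% of all genes tested (6.29% higher and 32.6% lower in GFP+), and C4b was the only one of the 9 genes for which this held. The fitted difference was -0.43 ± 0.34 (SE, adjusted p = 0.363). C4b has a close paralog, C4a, that the feature list does not hold, so reads of either could have entered the count.

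Cd55, which protects host cells from convertases, was near the limit of detection in brain cells, with 64 UMIs over the 4 GFP- and 151 over the 4 GFP+ libraries. It ran from 1.29 to 3.37 CPM in GFP- and from 2.36 to 4.22 CPM in GFP+ libraries, with a log2 fold change of 0.82 ± 0.35 (SE, adjusted p = 0.0968). Naive microglia gave 0 UMIs, which allows up to 3.04 CPM. An annotated antisense gene, Gm16083, overlaps exons of Cd55.

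Most UMIs of C4b and Cd55 came from cells with CAM markers. CAM-marker cells carried at least 3 of 8 CAM markers (Mrc1, Pf4, Ms4a7 and others) and no other list, the microglia list aside. Microglia-marker cells carried at least 3 of 8 microglia markers without the CAM or another list. CAM-marker cells could thus carry microglia markers too. Of 2242 i.v. female GFP+ cells with the microglia list, 822 counted as microglia-marker cells. CAM-marker cells made up 3.85% to 12.9% of GFP- and 33.4% to 47.2% of GFP+ cells, at median depths of 2260 to 3965 and 4952 to 6351 UMIs, against 827 to 1043 and 911 to 2316 UMIs in microglia-marker cells. A cell of greater depth is more likely to show 3 markers, so both groups are partly set by depth. The study found Mrc1, Pf4, Ms4a7 and Stab1, all on the CAM list, enriched in clusters of mostly GFP+ MLCs. CAM-marker cells may thus be of different kinds in GFP+ and GFP- libraries, which was not tested. CAM-marker cells held 56.7% to 84.3% of the C4b UMIs and 57.5% to 87.0% of the Cd55 UMIs of each treated library. Being deeper, they also held a larger part of all UMIs than of cells. Mean C4b was 19.9 CPM in GFP+ CAM-marker cells and 15.3 CPM in whole GFP+ libraries, and mean Cd55 4.04 and 3.39 CPM. In GFP- these means were 103 and 25.5 CPM for C4b and 9.68 and 2.31 CPM for Cd55. In CAM-marker cells, C4b stood at 183, 113, 46.8 and 70.6 CPM in GFP- libraries of the i.v. female, i.v. male, i.c.v. female and i.c.v. male, and at 33.3, 16.1, 7.44 and 22.6 CPM in the GFP+ libraries. In microglia-marker cells it ran from 6.00 to 12.0 CPM in GFP- and from 2.17 to 18.3 CPM in GFP+ libraries.

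Within CAM-marker cells, C4b, C5ar1 and Cfp had lower CPM in every GFP+ library than in any GFP- library, and whether they were called depended on the fit. C5ar1 stood at 134, 259, 177 and 213 CPM in GFP- and at 64.6, 109, 89.5 and 111 CPM in GFP+ CAM-marker cells of the i.v. female, i.v. male, i.c.v. female and i.c.v. male. Cfp stood at 65.8, 47.5, 31.8 and 35.3 CPM and at 19.9, 14.3, 6.02 and 13.7 CPM in the same order. For all 3 genes every GFP+ library lay below every GFP- library, as was so for 5.02% of the 10173 genes tested in these cells (1.93% higher and 3.1% lower in GFP+).

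The unblocked log2 fold changes in CAM-marker cells were -2.15 ± 0.44 (SE) for C4b (adjusted p = 0.0957), -1.06 ± 0.20 for C5ar1 (adjusted p = 0.0531) and -1.56 ± 0.32 for Cfp (adjusted p = 0.0889), with 0.265% of genes called (0.00983% higher and 0.256% lower). With the mouse as a block, which pairs the sorts of each animal, all 3 passed, at -2.32 (adjusted p = 5.3e-06), -1.03 (adjusted p = 1.53e-05) and -1.76 (adjusted p = 9.25e-05). DESeq2 also called these 3, and so did edgeR with i.v. female GFP+ cells left out (C4b -2.49, adjusted p = 0.0318). This comparison was chosen after seeing the data. The C1q genes differed by 0.06 ± 0.09 (SE) each in these cells, at 8255 ± 537 CPM (SD, n = 4) for C1qa in GFP+ and 8006 ± 519 CPM in GFP-, and C3ar1 by -0.01 ± 0.10.

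In microglia-marker cells C3 was the only one of 8 tested complement genes called, with 21.6% of 10532 genes called (11.7% higher and 10% lower in GFP+). Its CPM overlapped between sorts, at 6.29 to 11.8 in GFP+ and 2.29 to 8.66 in GFP- cells. Of all genes tested there, 34.1% did not overlap (4.96% higher and 29.1% lower). C3 stood at 9.85 ± 2.44 CPM (SD, n = 4) in GFP+ and 4.73 ± 2.93 CPM in GFP- cells, a log2 fold change of 1.38 ± 0.43 (SE, adjusted p = 0.0413). With the mouse as a block it was 1.44 (adjusted p = 0.0553), and 6 of 8 leave-one-out fits lost the call. Those fits left out either i.v. GFP- library, either i.v. GFP+ library or either library of the i.c.v. male, and gave 1.13 to 1.44 with adjusted p from 0.0666 to 0.118.

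**Figure D4:**
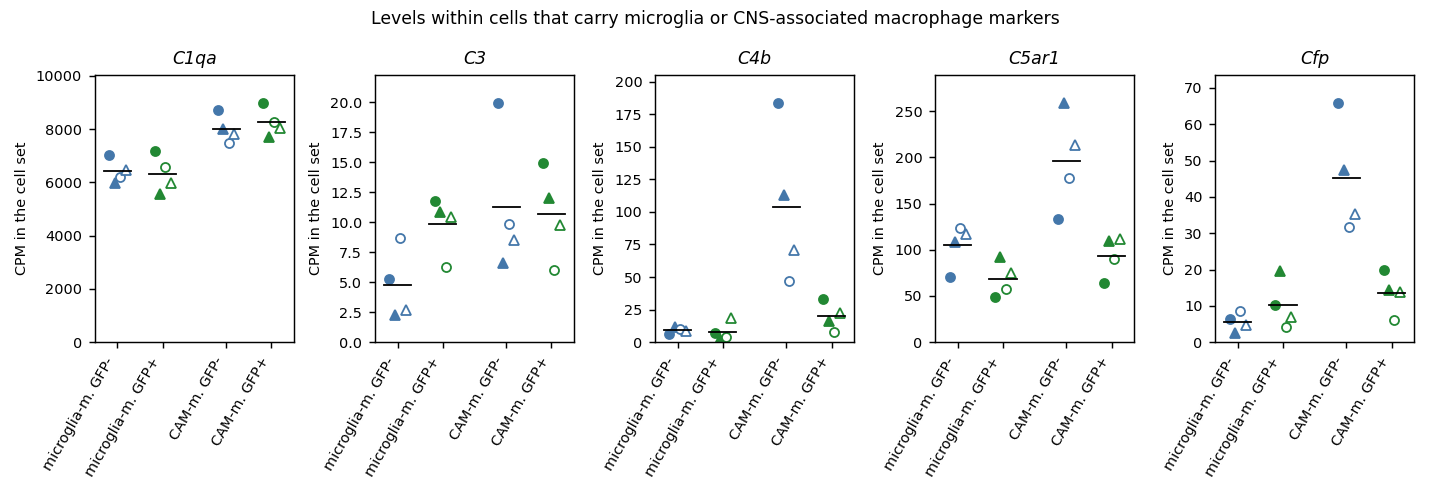
CPM of 5 complement genes (y axis, linear, from 0) within microglia-marker and CAM-marker cells of GFP- (blue) and GFP+ (green) libraries. Filled points are i.v. and open points i.c.v. mice, circles female and triangles male, and black lines are means of 4; C4b, C5ar1 and Cfp of CAM-marker cells are lower in every GFP+ library than in any GFP- library.

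Among naive populations, C3, Cfp and Cd55 were highest in the PBMC library, while its C4b level was near that of the neuron sort. PBMCs held C3 at 103 CPM (95% Poisson interval 91.1 to 116), Cfp at 460 CPM (434 to 487), C4b at 179 CPM (163 to 196) and Cd55 at 98.4 CPM (86.8 to 111). The source differed by gene. B cell-marker cells held 250 of the 259 Cd55 UMIs, at 260 CPM against 29.4 CPM in monocyte-marker cells, while Cfp stood at 1153 CPM in neutrophil-marker, 894 CPM in erythroid-marker, 567 CPM in monocyte-marker and 155 CPM in B cell-marker cells. C3 stood at 157 CPM in monocyte-marker, 152 CPM in neutrophil-marker, 90.9 CPM in erythroid-marker and 23.9 CPM in B cell-marker cells. A cell could carry several lists, so these sets overlap. C4b had a UMI in 29 of 341 PBMCs (8.50%) and Cfp in 109 (32.0%). The 301 of 334 PBMCs without a C1q UMI at 500 UMIs held C4b at 26.1 CPM and Cfp at 167 CPM, and the 13 with all 3 chains held 371 and 1606 CPM.

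Glia of the naive brain held C4b and little else of the 9 genes. C4b stood at 161 CPM (149 to 175) in the neuron sort, where all 599 of its UMIs were in oligodendrocyte-marker cells, and at 37.9 CPM (32.6 to 43.8) in astrocytes. C3 and C3ar1 gave no UMI in either library, which allows up to 0.807 and 0.624 CPM. C1qa stood at 1.61 and 1.25 CPM there. With 1 library per population, these levels have no replicate and no test was run.

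Other genes of the pathway were called between sorts, among them regulators and receptors. Of a list of 52, 51 were listed in the files, 20 were tested between sorts and 31 were too low, and of the 20 tested 2 were higher and 8 lower in GFP+ MLCs, where 32.5% of all genes were called (16.6% higher and 15.9% lower), with a median log2 fold change of -0.53 beside 0.01 over all genes.

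Csmd3, a large membrane protein with complement control repeats, had the largest fold change of the 20. It stood at 392, 316, 142 and 221 CPM in GFP- libraries of the i.v. female, i.v. male, i.c.v. female and i.c.v. male and at 8.48, 5.67, 22.7 and 11.3 CPM in the GFP+ libraries. The sorts lay far apart in every mouse, with a log2 fold change of -4.21 ± 0.43 (SE, adjusted p = 0.000465). It was lower in both cell groups as well, by -3.61 in CAM-marker and -2.76 in microglia-marker cells (adjusted p = 0.000643 and 0.000167). The chains of complement receptor 3 were both lower in GFP+ MLCs. Itgam, which encodes CD11b and was used for sorting, differed by -0.97 ± 0.21 (adjusted p = 0.00975) and Itgb2, its partner, by -0.50 ± 0.16 (adjusted p = 0.0385). Both were called in microglia-marker cells and neither in CAM-marker cells, at -0.11 ± 0.22 and -0.13 ± 0.15, and that contrast was not tested. An annotated gene, Gm49368, overlaps exons of Itgam.

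Lrp1, an endocytic receptor that binds C1q among many ligands, was lower in GFP+ (-0.59 ± 0.14, adjusted p = 0.0122). Cd93, once named a C1q receptor, was higher, by 1.35 ± 0.43 (adjusted p = 0.0399). C1qbp, a mitochondrial protein that binds C1q heads, was higher by 0.47 ± 0.12 (adjusted p = 0.0165). These fold changes carry the TMM scaling, which moved with the sort. In plain CPM, Cd93 ran from 52.6 to 86.8 in GFP+ and from 11.7 to 60.9 in GFP- libraries. C1qbp ran from 58.0 to 73.7 and from 50.3 to 65.0 CPM. Both genes thus overlapped between sorts, and each was higher in GFP+ in 3 of 4 mice. In CAM-marker cells none of these 3 was called, with Lrp1 at 0.15 ± 0.14, Cd93 at -0.16 ± 0.14 and C1qbp at 0.03 ± 0.15. In microglia-marker cells Lrp1 (-0.72 ± 0.15, adjusted p = 0.0078) and C1qbp (0.58 ± 0.15, adjusted p = 0.0205) were called and Cd93 was not (1.79 ± 0.59, adjusted p = 0.0531). C2, Masp1 and Masp2, named after their values were seen, were also called lower, all under 20 CPM in every library. Genes of at least 20 CPM in a library that were not called were C5ar2, Cr1l, Cr2, Fcna, Clu, Vtn, Itgax and Calr, with log2 fold changes from -0.83 for Cr2 to 2.35 for Vtn. Cr2 and Fcna reached at most 4.02 and 4.44 CPM in treated libraries, and 20 CPM in a naive library alone. Itgax, the chain of complement receptor 4, was called between routes within MLCs, as the only pathway gene, at 32.8 and 31.3 CPM in the i.v. and 4.87 and 8.16 CPM in the i.c.v. GFP+ libraries (2.39 ± 0.50, adjusted p = 0.0452). Cd59a, Serping1, Fcnb and Sez6l2 also reached 20 CPM in a naive library alone and were not tested between sorts.

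**Figure D5:**
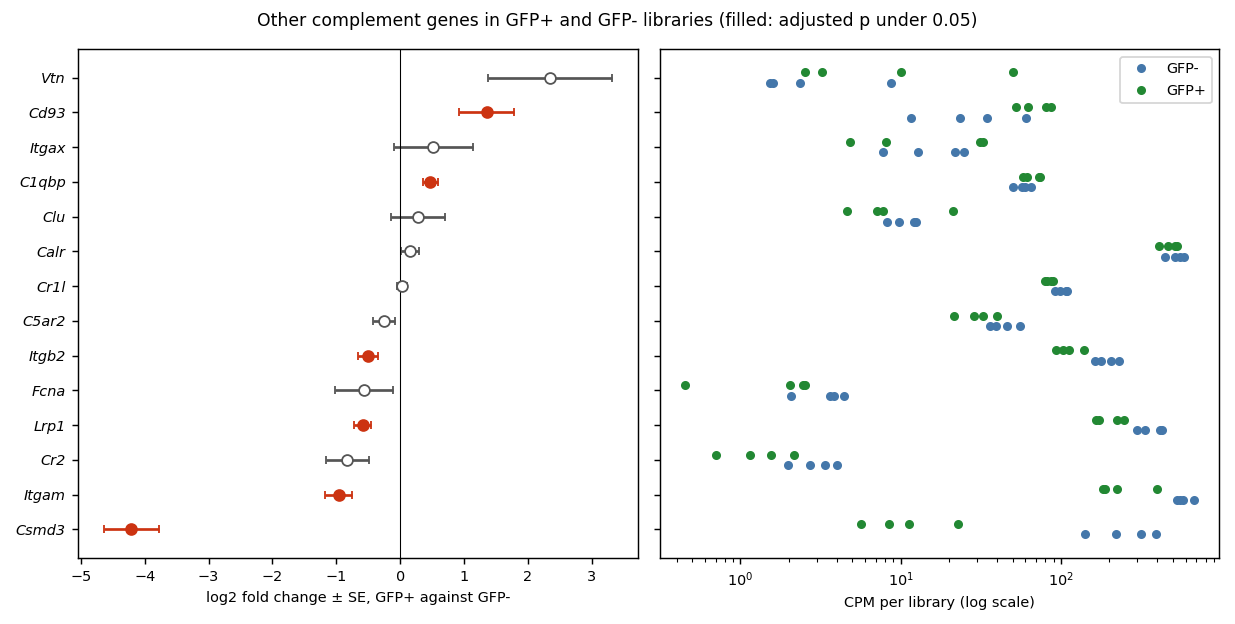
Left, log2 fold change with SE (x axis) of GFP+ over GFP- for complement genes outside the 9 that reached 20 CPM in a library and were tested (y axis); filled points passed an adjusted p of 0.05. Right, their CPM in each treated library (x axis, log scale); Csmd3 is lower in every GFP+ library than in any GFP- library.

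Genes whose levels most resembled those of the 9 were searched over libraries, as a description. The 12 points share depth and contrasts of cell type, among them microglia and MLCs against the neuron sort, astrocytes and PBMCs. Over the 12 libraries the closest to C1qa was 5430427O19Rik (Pearson r = 0.999), to C1qb Ifngr2 (r = 0.998), to C1qc Cysltr1 (r = 0.999) and to C3ar1 Slc15a3 (r = 0.999), all of log2(CPM + 1). The closest to C5ar1 was Rab8b (r = 0.994), to Cfp Pqlc3 (r = 0.987), to C4b Uba1 (r = 0.960) and to Cd55 Mdm1 (r = 0.949). Over the 8 treated libraries alone Cfp was closest to Ciita, Alcam and Vim (r = 0.991, 0.991 and 0.989), and C1qa and C1qb shared Sgcb as the closest (r = 0.939 and 0.967). C1qc was closest to Tmem37 (r = 0.960), C3 to Prr13 (r = 0.985) and C3ar1 to Nrbf2 (r = 0.960). C5ar1 was closest to Golph3 (r = 0.972), C4b to Tor3a (r = 0.950) and Cd55 to Rnf141 (r = 0.927).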

How the data were processed

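Deposited values are whole-number UMI counts per gene and barcode, which the authors produced with Cell Ranger 3.1.0 on mm10 without normalization. Naive tables hold 2500 barcodes each. Counts of kept cells (200 or more genes, mitochondrial UMIs up to 10%) were summed per library. No doublet caller was run.

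Sorts (4 libraries each), routes within each sort (2 libraries each, with pooled spread) and their interaction were tested with edgeR 4.0.16 in R 4.3.3 (quasi-likelihood, TMM, filterByExpr, Benjamini-Hochberg over all genes, called under 0.05), with DESeq2 1.42.0 as an alternative. The code was tested on simulated data. Sorts of one animal are paired, so the mouse was a block in an alternative. Deviations of same-mouse libraries correlated at 0.205, -0.275, -0.331 and 0.013 over 11756 genes.

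Shares of cells used cells of at least 500 UMIs thinned to 500, with exact permutation over libraries (scipy 1.17.1), unadjusted. An exact sign-flip test of the differences paired by mouse was an alternative. All treated cells and 482 of 1274 naive microglia reached that depth. Poisson and binomial intervals are exact, at 95%, and cover counting error only; a count of 0 allows 3 counts.

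The 9 genes, the pathway list and marker lists were chosen with earlier results of these data known. Named were the 9, pathway genes of at least 20 CPM in any library, and the genes with the highest correlation to each. Results for a pathway gene and for a gene of the correlation search are not reported here.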

Additional observations from a re-analysis of the deposited data

Results flagged for a closer look

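Of 36 groups of 4 libraries checked for a value far from the rest (CPM and share of cells of each gene in each sort), 1 stood apart. Chance gives about 1 in 20 such groups, so 1 of 36 is no excess. C1qa in i.v. male GFP+ cells was 5491 CPM, against 7053 to 7334 CPM in the other 3 GFP+ libraries. That library also had the largest share of cells without a C1q UMI, 15.1%, and its C1qb and C1qc were the lowest of their sort.

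The difference of Cfp between sorts depended on route in a test of the interaction (log2 difference 3.002, adjusted p = 0.0218, edgeR). GFP+ was above GFP- in both i.v. mice and below it in both i.c.v. mice. With the cells of all 11 other marker lists left out together it was 2.17 and lost the call (adjusted p = 0.128). The part of any single cell type was not tested.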

How the results depend on the processing

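Values are log2 fold changes or numbers called by edgeR unless stated. Of 898 refitted fold changes of the 9 genes, 778 kept direction and call, 15 lost the call, 34 gained one and 71 changed sign; causes were not tested. Between sorts, the 3820 genes called became 1263 with cells thinned to 500 UMIs, 1173 without CAM-marker cells and 1031 in i.c.v. mice alone. Of the 9 genes, 4 were called by DESeq2 and 4 without the 3% of cells with most UMIs, 1 after thinning, 1 without cells of other lists and 2 in i.v. mice alone. Thinned, C1qa, C1qb and C1qc were -0.061, -0.14 and -0.052, and without CAM-marker cells -0.22, -0.19 and -0.19. C3ar1 was -8.807e-05 with library totals and -0.066 without CAM-marker cells, and Cfp -0.77 in i.c.v. mice alone.

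Between routes in MLCs, 348 genes became 526 with DESeq2, 679 unfiltered, 86 thinned, 124 without other lists and 2020 without CAM-marker cells, and the 1 complement gene became 0 thinned and 0 without other lists. C1qa was 0.23 thinned, 0.034 without other lists and 0.022 without the top 3%, C1qb 0.19, 0.055 and 0.043, C1qc 0.16 thinned, C5ar1 0.11 thinned and 0.29 without CAM-marker cells, and C4b -0.71 without them. In microglia, 0 genes became 70 with DESeq2, 83 unfiltered and 3 thinned. There C1qa was 0.029 with library totals and 0.014 without CAM-marker cells, C4b 0.0051 with library totals and 0.16 under a stricter cell filter, and Cd55 -0.026 under that filter.

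For the interaction, 240 genes became 598 with DESeq2, 698 unfiltered, 678 with the mouse as a replicate block, 142 under the stricter filter, 74 thinned, 20 without other lists and 1148 without CAM-marker cells, and the 1 complement gene became 2 unfiltered and 0 without other lists. C1qa was 0.0081 over all barcodes, 0.35 thinned, 0.15 without other lists and 0.14 without the top 3%. C1qb was -0.021 with upper-quartile scaling, -0.17 with library totals, -0.035 under the stricter filter and -0.16 without CAM-marker cells. C1qc was 0.33 thinned, 0.12 without other lists and 0.13 without the top 3%, and C4b -0.24 without CAM-marker cells.

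In CAM-marker cells, 27 genes became 121 with the block, 83 with DESeq2 and 89 unfiltered, and the 0 complement genes became 3, 3 and 3, and 1 with library totals. C3 was -0.092 with the block and C3ar1 0.022 unfiltered. In microglia-marker cells the 1 became 0 with the block, 2 with DESeq2 and 0 with library totals, where C1qa, C1qb, C3ar1 and C4b were -0.023, -0.0012, -0.062 and -0.16. At each cell's own depth the shares of C5ar1 and C4b were 2.04 and 0.748 points higher in GFP+. Between sorts the mouse block gave 3217 genes and changed no other call of the 9.

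Leaving out 1 library at a time gave 2177 to 3791 genes and 0 to 2 of the 9 between sorts, 42 to 293 and 0 to 1 between routes in MLCs, 0 to 23 genes in microglia, 41 to 239 and 0 to 1 for the interaction, 15 to 36 and 0 to 3 in CAM-marker cells, and 1005 to 2561 and 0 to 2 in microglia-marker cells. Ranges that crossed 0 between routes in MLCs were -0.29 to 0.056 (C1qa), -0.26 to 0.080 (C1qb), -0.33 to 1.502 (C4b), -0.55 to 0.21 (C5ar1) and -0.51 to 0.28 (Cd55), and in microglia -0.20 to 0.011 (C1qa) and -0.52 to 0.89 (Cd55). For the interaction they were -0.21 to 0.14 (C1qa), -0.13 to 0.20 (C1qb), -0.20 to 0.074 (C1qc), -0.22 to 1.61 (C4b) and -0.96 to 0.44 (Cd55). In CAM-marker cells C3 ran from -0.087 to 0.33 and C3ar1 from -0.045 to 0.022, in microglia-marker cells C4b from -0.54 to 0.38, and the share of C3ar1 from -1.40 to 0.882 points. Depth limits Cd55 and C3, which rest on 64 and 195 UMIs over the GFP- libraries.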
